A study of Mus musculus with 6 samples.

Results

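Chromosome 9 of the mouse carries 2 long arrays of odorant receptor genes, and the H3K9me3 islands of both were described here, the proximal array at 18.5 to 20.4 Mb and the distal array at 37.4 to 40.0 Mb (mm9). Members were islands, the stretches of enrichment that the SICER program calls, whose midpoint lay in one of these windows. They numbered 712 of the 12565 islands of 4 libraries. Overlapping or touching islands of the 4 libraries were joined to 160 regions of 5840 in the genome, 68 proximal and 92 distal. The study asked whether the loss of lamin B1, a protein of the nuclear lamina, altered H3K9me3 at odorant receptor genes, and its paper draws the distal array but not the proximal one.

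The H3K9me3 libraries came from 2 Lmnb1+/- (control) and 2 Lmnb1-/- (mutant) mice of mixed background. All carried K5Cre, a Cre driven by the keratin 5 promoter in the horizontal basal stem cells, a Lmnb1 fl allele with exon 2 between lox sites (1 copy in controls, K5Cre;Lmnb1 fl/+, and both in mutants, K5Cre;Lmnb1 fl/fl) and a Tomato reporter of recombined cells. Mice of 2 to 3 months received 50 mg per kg methimazole, which destroys the olfactory epithelium, in 2 injections 3 days apart, and Tomato-positive cells were sorted after 4 weeks of regeneration. Control 1 and mutant 1 were littermates (methimazole group 3), as were control 2 and mutant 2 (group 4), and each library came from 1 mouse. The sorted cells were a mixture of stem cells, progenitors, neurons and supporting cells, so fewer cells with the mark and less mark per cell cannot be told apart. A small minority of Tomato-positive cells in mutants kept lamin B1 according to the study. Neither the genotype nor the cell types could be checked against marker genes in these files, which hold islands and peaks without gene names.

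Odorant receptors form a very large gene family whose members lie side by side in arrays, and an olfactory neuron settles on one of them while the rest stay silent. H3K9me3, the trimethylation of lysine 9 of histone H3, marks constitutive heterochromatin and is laid over odorant receptor arrays as olfactory neurons differentiate, where it is associated with silencing of the receptors that a neuron does not use. H3K4me3 marks active promoters. Lamin B1 lies beneath the inner nuclear membrane, where heterochromatin is usually tethered.

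By gene order in the RefSeq annotation (GRCm38.p6, a build other than that of the islands, so that no coordinates were combined), the 2 runs of odorant receptor genes on chromosome 9 differ in size. The proximal run has 51 receptor genes from Olfr24 to Olfr18, of which 35 are protein-coding and 16 are pseudogenes. A single other protein-coding gene, Zfp317, a zinc finger gene, lies among them. The run is preceded by Muc16, a mucin gene, and followed by Zfp560, Zfp26, Zfp426 and Zfp266, a cluster of zinc finger genes. The distal run has 127 receptor genes from Olfr160, known as M72, to Olfr986, of which 95 are protein-coding and 31 are pseudogenes. Another 3 protein-coding genes, Vwa5a, AW551984 and Tmem225, lie among them.

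Upstream sequences of the receptor genes at the ends of the runs show what kind of sequence these arrays hold. RefSeq promoter entries were matched for 30 of the 51 proximal and 79 of the 127 distal genes, and the 250 bases before the annotated start are given for the first and the last matched gene of either run, 5′ to 3′ in GRCm38.p6, with TAATTA, the core of homeodomain binding sites, in capitals.
Olfr24 (chr9:18755634-18755883, minus strand): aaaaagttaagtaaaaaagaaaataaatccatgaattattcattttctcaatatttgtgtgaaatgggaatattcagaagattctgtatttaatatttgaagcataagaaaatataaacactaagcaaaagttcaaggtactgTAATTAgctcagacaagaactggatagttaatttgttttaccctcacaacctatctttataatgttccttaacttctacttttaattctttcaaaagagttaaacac
Olfr39 (chr9:20282101-20282350, plus strand): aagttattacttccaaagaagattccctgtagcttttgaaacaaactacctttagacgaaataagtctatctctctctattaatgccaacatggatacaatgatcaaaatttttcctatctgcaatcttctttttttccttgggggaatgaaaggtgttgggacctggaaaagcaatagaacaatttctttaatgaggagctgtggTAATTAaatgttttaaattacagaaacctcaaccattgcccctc
Olfr160 (chr9:37712281-37712530, minus strand): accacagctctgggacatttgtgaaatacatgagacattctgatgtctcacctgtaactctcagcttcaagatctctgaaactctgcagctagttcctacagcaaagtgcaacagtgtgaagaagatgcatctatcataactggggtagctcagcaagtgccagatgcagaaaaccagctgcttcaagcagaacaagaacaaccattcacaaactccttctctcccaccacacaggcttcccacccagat
Olfr986 (chr9:40186829-40187078, plus strand): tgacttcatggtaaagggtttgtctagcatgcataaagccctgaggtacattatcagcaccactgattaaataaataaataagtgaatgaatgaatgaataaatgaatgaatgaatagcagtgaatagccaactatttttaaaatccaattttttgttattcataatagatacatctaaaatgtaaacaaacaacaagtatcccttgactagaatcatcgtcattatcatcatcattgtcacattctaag

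Both proximal genes held a TAATTA, and neither distal gene did. Across the matched genes TAATTA was found, on either strand, in 14 of 30 proximal (46.7%) and 13 of 79 distal upstream sequences (16.5%), against 4.90% of those of 27025 genes. The motif CCCNNGGG, a form of the Olf/EBF site that does not overlap TAATTA, was found in 0 proximal and 2 distal sequences, against 11.7% of all. The sequences were AT-rich, with a median GC content of 31.2% proximally and 34.4% distally against 52% over all genes, a difference that moves with both motif counts and whose part in them was not tested. The annotated start was itself an ATG in 16 of 30 proximal and 52 of 79 distal genes, against 6.75% of all genes, so for many receptors the window lies before the coding start and not before a mapped transcription start.

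The libraries differed in depth and in the number of islands called. The average per 200 bp window, decoded from the scores themselves, was 1.41 reads for control 1, 2.54 for control 2, 1.43 for mutant 1 and 2.18 for mutant 2. The libraries held 2038, 5658, 2905 and 1964 islands in the same order. The 2 arrays held 3.99 to 8.64% of the islands of a library, 6.84 to 11.3% of its covered bp, and 79.2 to 88.0% of the covered bp of chromosome 9. Mutant 2 stood apart within both arrays, as the values below show. Results that rest on it are therefore also given without it.

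The distal array was the more densely covered in every library. Islands covered 41.4% (control 1), 49.9% (control 2), 45.3% (mutant 1) and 26.5% (mutant 2) of the proximal window. They covered 62.5%, 67.2%, 69.3% and 40.3% of the distal window in the same order. Mutant 2 was thus the lowest in both arrays, and the other 3 libraries lay between 41.4 and 49.9% proximally and between 62.5 and 69.3% distally. Proximal coverage was lower than distal coverage by 19.1 percentage points on average, in 4 of 4 libraries (exact sign-flip permutation test over the 4 libraries, two-sided, p = 0.125, the smallest it can give, adjusted p = 0.325 over 13 tests). Without mutant 2 the difference was -20.8 points, and the p of 0.250 is the smallest that 3 libraries allow.

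**Figure D1:**
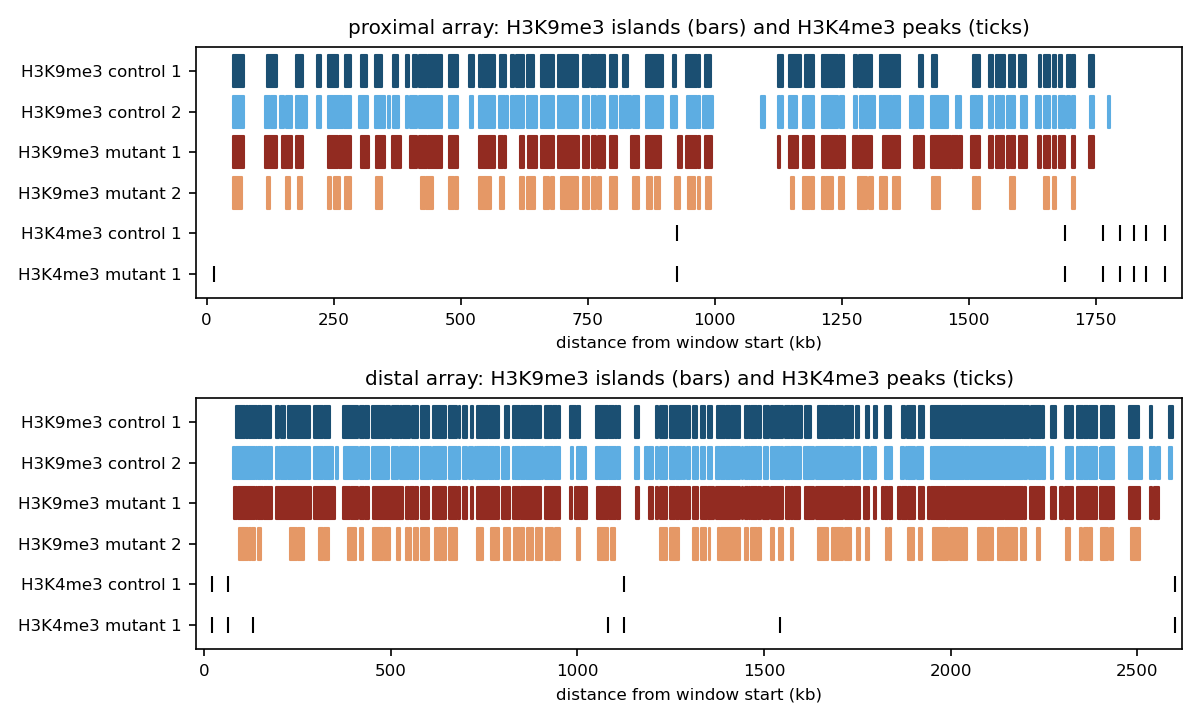
H3K9me3 islands of the 4 libraries (coloured bars) and H3K4me3 peaks that start in the window, of control 1 and mutant 1 (black ticks), by distance from the window start in kb, for the proximal (top) and distal (bottom) array. Islands cover 62.5 to 69.3% of the distal window in the first 3 libraries and 40.3% in mutant 2, and leave a stretch of 96 kb near the middle of the proximal array without an island in any library.

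The median island was about as long in both arrays, and the distal array had more of the longest islands. Median island length was 11.2, 9.2, 12.8 and 10.3 kb in the proximal array and 11, 10.1, 12.1 and 9.8 kb in the distal array (control 1, control 2, mutant 1, mutant 2). The log2 ratio of proximal to distal median length averaged 0.01, with libraries on either side of 0 (exact sign-flip permutation test, p = 0.875, adjusted p = 1). The longest island measured 33.6 to 40 kb proximally and 39 to 80.4 kb distally. Proximally 8 of 63, 11 of 86, 11 of 64 and 1 of 48 islands reached 20 kb. Distally, in a wider window, 27 of 113, 23 of 140, 31 of 110 and 11 of 88 did. Mean length was 12.5, 11.02, 13.4 and 10.5 kb proximally and 14.4, 12.5, 16.4 and 11.9 kb distally, the higher distally in 4 of 4 libraries.

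Gaps between neighbouring islands had medians of 9.7, 6.2, 8.2 and 16.2 kb in the proximal array. In the distal array they were 3.1, 2.2, 2.8 and 7.8 kb. The proximal median was the higher in 4 of 4 libraries, by 1.44 on the log2 scale on average (exact sign-flip permutation test, p = 0.125, adjusted p = 0.325), and by 1.56 without mutant 2. Mutant 2 had the widest gaps in both arrays. The longest gap in the same order was 132.6, 96, 130.4 and 157.4 kb proximally, and 45.8, 40.6, 44.8 and 119 kb distally.

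Islands of the distal array also scored slightly more per kb. The SICER score of an island is a sum over its enriched 200 bp windows, in which a window counts the more the less likely its reads would be at the mean depth of the library. It rises with depth and is compared within a library. Score per covered kb was 17.5, 25.0, 20.7 and 15.4 in the proximal array and 19.2, 27.5, 23.0 and 15.9 in the distal array. The proximal value was lower in 4 of 4 libraries, with a mean log2 ratio of -0.12 (exact sign-flip permutation test, p = 0.125, adjusted p = 0.325). Turned into reads, these scores correspond to a window at 3.01, 2.92, 3.34 and 2.30 times the library average proximally and 3.20, 3.09, 3.58 and 2.35 times distally. On that scale control 2, whose score was the highest, lay among the others, and mutant 2 remained the lowest.

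**Figure D2:**
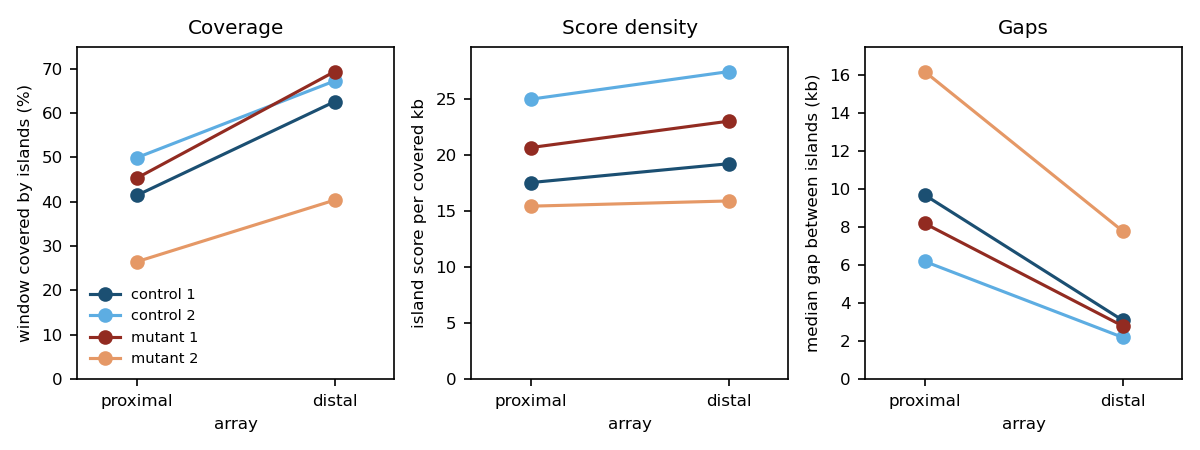
Percent of the window covered, SICER score per covered kb, and median gap in kb (vertical axes) in the proximal and distal array, 1 line per library. All 4 lines rise to the distal array for coverage and score and fall for the gap, and mutant 2 has the lowest coverage (26.5% and 40.3%).

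Compared with islands elsewhere in the same library, those of both arrays were longer. Elsewhere the median was 8.6 kb (control 1), 5.6 kb (control 2), 8.4 kb (mutant 1) or 8 kb (mutant 2), below both arrays in every library. The log2 ratio averaged 0.52 for the proximal and 0.51 for the distal array (exact sign-flip permutation test, p = 0.125, adjusted p = 0.325 for each). The median score per kb of single islands was higher than elsewhere in 3 libraries and lower in mutant 2, where it was 15.2 proximally and 15.6 distally against 16.1 elsewhere. This comparison gave mean log2 ratios of 0.16 and 0.26 (exact sign-flip permutation test, p = 0.25, adjusted p = 0.464 for each).

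Between the genotypes, no difference in either array exceeded the spread between libraries, each from 1 mouse. Proximal coverage was 45.6% ± 6.01 in controls and 35.9% ± 13.3 in mutants (SD, n = 2 each), and the means were -9.78 percentage points apart (mutant minus control, exact permutation test over 6 assignments, two-sided, p = 0.667, adjusted p = 0.867, smallest possible p 0.333). Distal coverage was 64.9% ± 3.30 in controls and 54.8% ± 20.5 in mutants (SD, n = 2 each), with means -10.04 points apart (exact permutation test, p = 1). In both arrays mutant 1 was above and mutant 2 below its littermate. Without mutant 2 the differences were -0.36 points proximally and 4.44 points distally, so the lower mutant means rest on that library. With 2 mice per genotype, genotype, the individual mouse and the library cannot be told apart.

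Score per covered kb was 21.3 ± 5.26 in controls and 18.1 ± 3.70 in mutants proximally, and 23.3 ± 5.82 and 19.5 ± 5.04 distally (SD, n = 2 each). The log2 differences of -0.23 and -0.26 did not exceed the spread (exact permutation test, p = 0.667, adjusted p = 0.867 for each). They were -0.02 and 0.003 without mutant 2, and 0.03 and -0.007 without control 2, so they rest on both of these libraries. These scores rise with depth, which differed between the libraries, so they are not levels of the mark. Turned into reads over the library average, the log2 differences were -0.10 proximally and -0.12 distally. The genotype difference in coverage did not differ detectably between the arrays, at 0.26 points apart (exact permutation test, p = 1).

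Recurrence over the libraries was described by region. Of the 68 proximal regions 36 were called in all 4 libraries (52.9%), as were 56 of the 92 distal regions (60.9%), and in the genome the share was 17.3%. Joining islands lengthens a region by construction, and regions in all 4 libraries had a median length of 18.7 kb proximally and 22.3 kb distally, against 14.2 kb in the genome. Regions called in 3 libraries mostly lacked mutant 2, namely 12 of 14 proximally and 18 of 18 distally, against 55.9% in the genome. All 9 proximal and 7 of 11 distal single-library regions came from control 2, the deepest library, against 81.1% of such regions in the genome.

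Counted in bp, 40.1% of the proximal and 49.3% of the distal length covered in any library was covered in all 4, against 19.4% in the genome. Overlap between libraries rises with the share of a span that islands cover. That share was higher distally than proximally, and islands covered only 18.2 to 39.4 Mb of the whole genome in a library. The recurrence shares above and the pair values below are not adjusted for this. The mean share of the covered bp of a library that was covered in all 4 was 58.2% ± 18.0 proximally and 65.0% ± 18.1 distally (SD, n = 4). In both arrays mutant 2 was mostly a subset of the others, since 84.6% of its proximal and 92.0% of its distal bp were covered in all 4, against 56.3% in the genome. The bp covered in all 4 are the same for every library, so this share is by construction the highest for the library that covers least. Mutant 2 lacked 35.2% and 34.3% of the bp that the other 3 libraries shared, against 31.6% in the genome. Pairs of libraries shared 49.3 to 75.7% of their joint length proximally and 56.8 to 85.0% distally, and the highest value in both arrays was that of control 2 with mutant 1, a pair that shares neither genotype nor litter. The closest pair in the genome, control 1 with mutant 1, shared 48.4%.

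**Figure D3:**
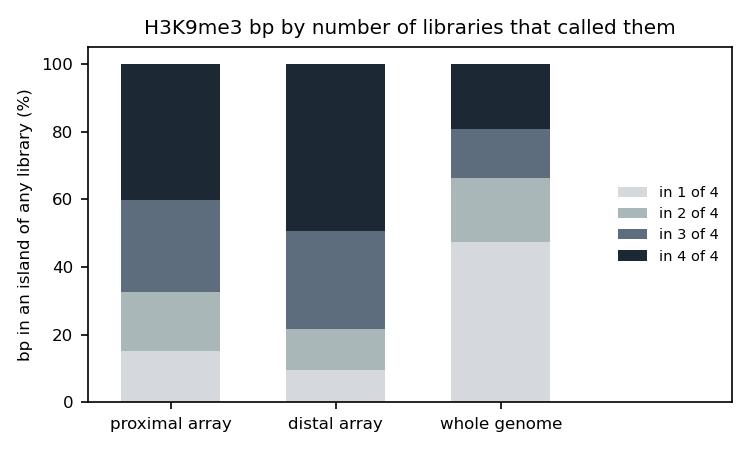
Percent (vertical axis) of the bp in an island of any library that lay in islands of 1, 2, 3 or all 4 libraries (shades), for the proximal array, the distal array and the whole genome. The darkest share, in all 4, is 40.1%, 49.3% and 19.4%. These shares rise with how densely islands cover a span and are not adjusted for it.

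Regions limited to one genotype were few in number. Of the proximal regions 6 (8.82%) were called in both controls and neither mutant, and of the distal regions 1 (1.09%), against 3.20% of the regions of the genome. The proximal share was thus above that of the genome and the distal share below it, a difference that was not tested. Regions of a single library cannot show this pattern, and made up 13.2% of proximal, 12.0% of distal and 52.0% of genome regions. Among regions called in at least 2 libraries, those in both controls and neither mutant were 6 of 59 proximally, 1 of 81 distally and 187 of 2801 in the genome. No region of either array was called in both mutants and neither control, a pattern of 0.565% of the genome. The highest summed proximal score of the 6 belonged to chr9:19314401-19334600, which scored 157 in control 1 and 394 in control 2, and the next to chr9:19099601-19105800, which scored 106 and 153. The distal region was chr9:39985601-39996200, which scored 88.2 and 79.0, close to the lowest island scores of these libraries (78.8 and 64.7).

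Across all regions, limma was fitted to log2(score + 64.7) on 2801 regions called in at least 2 libraries, 59 of them proximal and 81 distal. No region of either array passed an adjusted p under 0.05, and in the genome 0.0357% did. The smallest adjusted p was 0.814 proximally and 0.841 distally. At an unadjusted p under 0.05 lay 4 proximal regions, all lower in mutants, and 0 distal ones, against 3.93% of all regions on the lower side. Those 4 were all among the 6 called in controls only, and regions of that kind enter the fit through the controls, so a lower value there is built in. The region chr9:19314401-19334600 had a log2 difference of -2.11 (SE 0.46, limma unadjusted p = 0.00239, adjusted p = 0.814).

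With a pseudocount of 1 in place of 64.7 all 6 control-only proximal regions and the distal one passed the limma threshold, among 199 in the genome. None of these 7 regions had an island in either mutant.

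The log2 differences between mutants and controls were mostly negative in both arrays. The log2 difference was below 0 in 47 of 59 proximal and 63 of 81 distal regions tested, against 42.5% of all, with medians of -0.31 and -0.27 against 0.08 over all regions. Without the shift of each library to a common median, the median over all regions moved to -0.11 and those of the arrays to -0.50 and -0.46. Without mutant 2 the array medians were -0.05 and 0.02 against 0.11 over all regions, and 37 of 59 proximal and 35 of 81 distal regions lay below 0, against 40.0% of all. Both sets of counts include 6 proximal regions and 1 distal region called in controls only, where a lower value is built in. Of the 2801 regions tested with mutant 2, 187 were of that kind and 33 were called in mutants only. The counts with mutant 2 also hold 12 proximal and 18 distal regions that lacked an island in mutant 2 alone. The distal excess rested on mutant 2, and the proximal one was smaller without it and includes the 6 control-only regions.

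Regions called in all 4 libraries do not depend on that filter. On the log2 scale and relative to each region's mean over the libraries, the 36 proximal regions had medians of 0.14 and 0.12 in the controls, -0.02 in mutant 1 and -0.13 in mutant 2. The 56 distal regions had 0.12, 0.09, 0.10 and -0.29. Mutant 1 thus lay with the controls in the distal array and below them in the proximal array. The 1008 such regions of the genome, whose library medians were shifted to a common value, had 0.06, -0.02, -0.06 and 0.08, so mutant 2 was lower in the arrays than over these regions as a whole. Within littermates, the median difference of mutant minus control was -0.14 in pair 1 and -0.23 in pair 2 proximally, and -0.07 and -0.38 distally, against -0.11 and 0.10 in the genome. Both pairs were thus below 0 in both arrays, and pair 1 lay near its genome value.

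The regions with the highest summed scores, which grow with length, lay in the distal array. The longest region of either array, chr9:39346801-39449600, spanned 102.8 kb and scored 2059, 3067, 2604 and 1353 (control 1, control 2, mutant 1, mutant 2). It had the highest lowest-of-4 score, and 81.4 to 101.6 kb of it was covered in a library. Next came chr9:38772801-38837200, with 1352, 2002, 1841 and 1127, and chr9:39039001-39111200, with 1180, 1906, 1722 and 847. Mutant 2 was the lowest of 4 in all 3 distal regions, and their limma log2 differences were -0.22, 0.00 and -0.11 (SE 0.42 to 0.44).

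Per covered kb the order differed, and the highest lowest-of-4 value belonged to the proximal chr9:20165601-20172200, chosen after its values were seen, with 24.9, 52.1, 34.5 and 25.6, against 21.05, 30.9, 25.6 and 16.6 in the region of 102.8 kb. In the proximal array the summed scores of the corresponding regions were lower. The region chr9:19192001-19233200 scored 863, 1303, 1021 and 520, chr9:19825001-19865600 scored 682, 1069, 878 and 488, and chr9:19674601-19695200 scored 384, 640, 630 and 360. The longest proximal region, chr9:18917401-18964200, spanned 46.8 kb and scored 623, 839, 724 and 286. Mutant 2 was again the lowest in each, and it covered 24 kb of the longest region against 43 to 44 kb in the others.

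**Figure D4:**
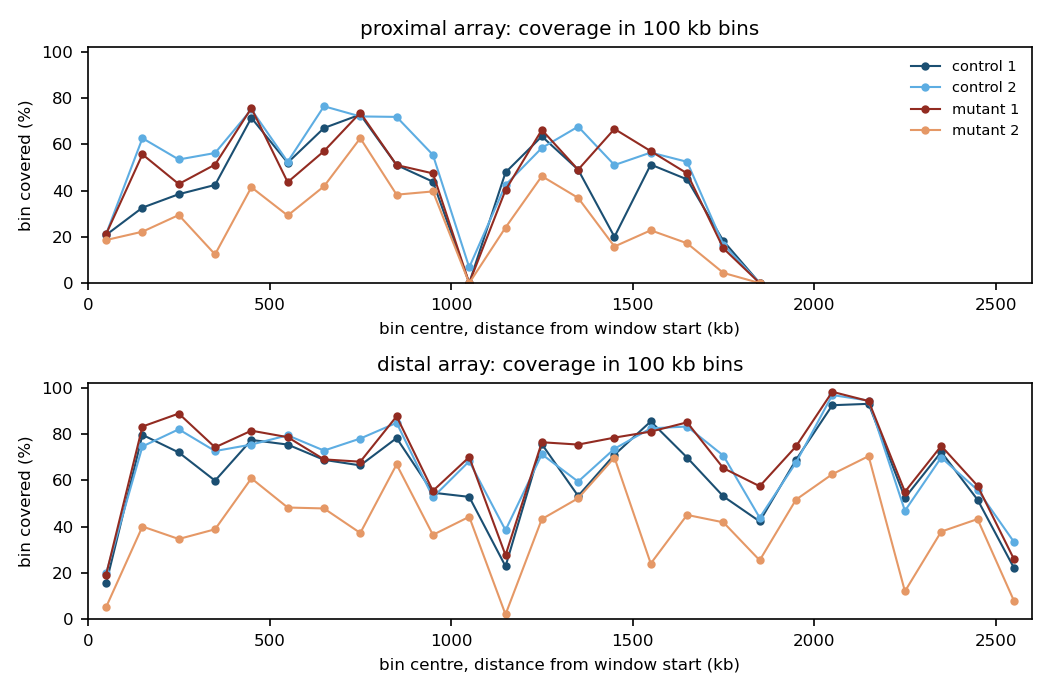
Percent of each 100 kb bin covered by islands (vertical axis) against the distance of the bin centre from the window start in kb, for the proximal (top) and distal (bottom) array, 1 line per library. The libraries share their peaks and dips, and mutant 2 runs below the others in most bins.

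Coverage varied along the arrays in a way the libraries shared. In bins of 100 kb the correlation between libraries was 0.77 to 0.92 over 19 proximal bins and 0.76 to 0.95 over 26 distal bins, a description of neighbouring bins that share libraries and island calls. The bins span the whole windows, so bins at or beyond the array ends can raise these values. Examples are chr9:20300001-20400000, at 0% in every library, and chr9:37400001-37500000, at 5.2 to 19.8%. The fullest proximal bin was covered to 72.8, 72, 73.6 and 62.6%, and the fullest distal bin to 93, 94.4, 94.2 and 70.4%. Mutant 2 was the lowest library in 17 of 19 proximal and 26 of 26 distal bins. The spread between libraries was widest in the distal bin chr9:38900001-39000000, with 85.4, 82.4 and 81% in the first 3 libraries and 24% in mutant 2, and in the proximal bin chr9:19900001-20000000, with 20, 51, 66.6 and 15.8%, where control 1 was low as well.

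Between the first and the last region called in all 4 libraries, the proximal array stretched over 1658 kb (chr9:18551601-20209600) and the distal array over 2433 kb (chr9:37479001-39912000). Within these stretches 36.9% of the proximal and 20.9% of the distal length had no island in any library. The longest such interval of either array was the proximal chr9:19496201-19592200, of 96 kb. It was followed proximally by chr9:18574201-18614800 (40.6 kb) and chr9:20246601-20274200 (27.6 kb), the last of which lies beyond the stretch. Distally the longest were chr9:39838201-39878400 (40.2 kb), chr9:38515401-38554000 (38.6 kb) and chr9:38354201-38380400 (26.2 kb). Reads that map to several places were discarded in the authors' alignment, and the mappability of these intervals was not analysed here.

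The 2 lower-coordinate ends were sharp on their outer side and the higher-coordinate ends were not. At the lower proximal end the first islands of the 4 libraries started within 1.2 kb of one another, in the region chr9:18551601-18574200, which scored 370, 526, 514 and 279. In the 50 kb outside it no library had an island, and the next island beyond lay 273 to 285 kb away. Of the inner 50 kb only 37.2 to 42.4% was covered, since this region is followed by the interval of 40.6 kb without an island. At the lower distal end the first islands started within 15.8 kb of one another, with 60 to 94% of the inner 50 kb covered and nothing in the outer 50 kb. This region, chr9:37479001-37542400, scored 1164, 1691, 1348 and 538.

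At the higher proximal end the last islands were spread over 69.4 kb. The last region in all 4, chr9:20203801-20209600, scored 91.3, 192, 137 and 94.2, and beyond it 20.8, 14.8, 18.4 and 0% of the next 50 kb was covered. At the higher distal end the spread was 88.2 kb. There the last region in all 4, chr9:39878401-39912000, scored 514, 802, 648 and 305, and 12.8, 32.4, 38.4 and 0% of the next 50 kb was covered. In both cases mutant 2 ended first and the other 3 libraries went on, so the end of the shared stretch is set by mutant 2. Beyond the last islands the next one lay 1253 to 2712 kb away distally and 1724 to 1794 kb away proximally.

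**Figure D5:**
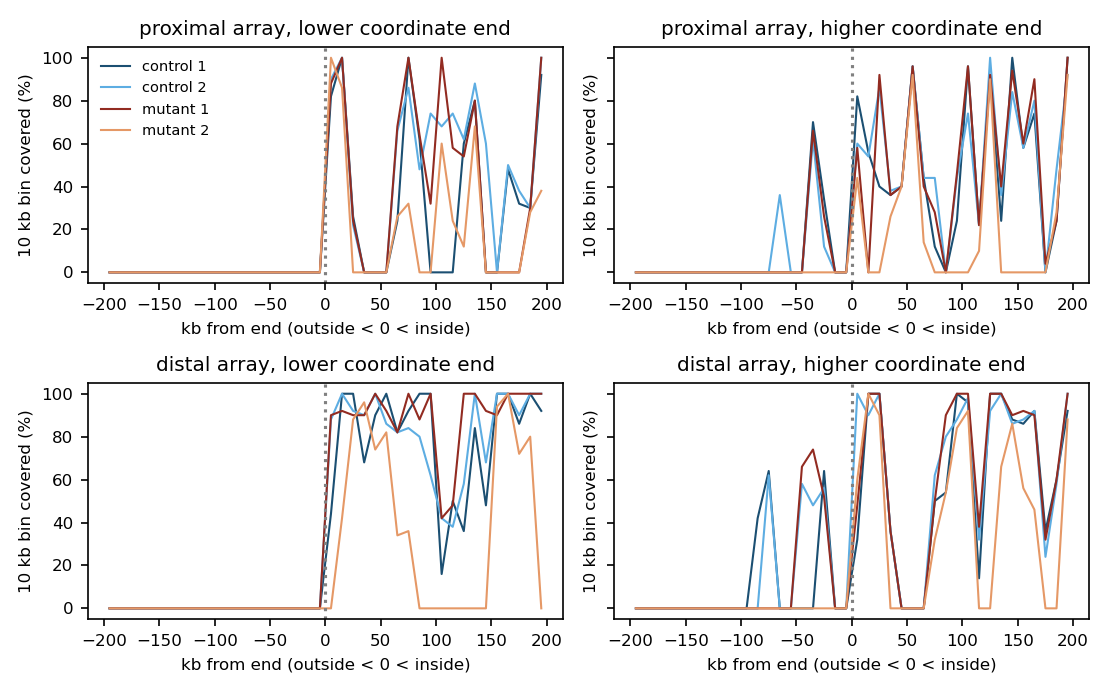
Percent of each 10 kb bin covered by islands (vertical axis) against the distance in kb from the end of the stretch called in all 4 libraries, negative outside and positive inside, for both ends of both arrays, 1 line per library. Both lower-coordinate ends drop to 0 outside, and at both higher-coordinate ends every library except mutant 2 continues beyond the end.

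Few H3K4me3 peaks lay in the shared stretches. H3K4me3 was measured in control 1 and mutant 1 only, from the same sorted cells, so there is no replicate and no test. The proximal stretch held 2 peaks in control 1 and 2 in mutant 1, at the same places, and the distal stretch held 1 in control 1 and 4 in mutant 1. Per Mb of stretch these were 1.21 in both libraries proximally, and 0.411 in control 1 and 1.64 in mutant 1 distally. The libraries held 15584 and 17897 peaks in all, and their rate per Mb of the genome was not computed.

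The proximal peaks lay at chr9:19426280-19427494 and chr9:20188716-20190425 in control 1, with MACS scores (-10 log10 p) of 1185 and 1534. The nearest islands on either side of the first left 19.6 kb open in control 1 and 20.6 kb in control 2, whereas an island overlapped the peak by 94 bp in mutant 1 and by 1215 bp, its full length, in mutant 2. The second was overlapped by 485 bp in control 2 and 85 bp in mutant 1 and by none in the other libraries.

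The shared distal peak, chr9:38525464-38527170 in control 1, scored 594 there and 452 in mutant 1. It lay inside the interval of 38.6 kb that no H3K9me3 library covered, and the flanking islands were 39.4, 40.6, 44.8 and 119 kb apart in control 1, control 2, mutant 1 and mutant 2. The proximal interval of 27.6 kb also held 1 H3K4me3 peak in both libraries. The other 4 intervals named above, the proximal one of 96 kb included, held 0 peaks in either library. Outside the shared stretches only peaks in the windows were listed, so that they lie near the arrays by construction. Of the 7 peaks of control 1 in the proximal window 5 lay beyond the higher end of the stretch, 16.9 to 139 kb from the nearest island of control 1. The window reaches further beyond that end than beyond the lower one.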

How the data were processed

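H3K9me3 FARP-ChIP-seq, a low-input chromatin immunoprecipitation, was analysed in 4 libraries and H3K4me3 in 2. The authors aligned reads to mm9 with bowtie (unique alignments, at most 2 mismatches) and called H3K9me3 islands in each library with SICER (200 bp windows, 600 bp gaps, E-value 0.01). The deposited values are the SICER score of each island and, for H3K4me3, the MACS score of each peak (-10 log10 p). No counts or input were used. The authors' edgeR comparison of counts was not repeated.

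Windows, members and lists were chosen with earlier results of these data known. Coverage, lengths and gaps were computed from islands taken by midpoint. Averages of reads per window were decoded from islands of 2 windows with scores below 700. Single values were compared by exact permutation and adjusted over 13 tests (Benjamini-Hochberg). Regions were compared with limma 3.58.1 in R 4.3.3, after each library was shifted to a common median over regions in all 4, at a threshold of 0.05. The rest was computed in Python 3.11.15 (numpy 2.4.6, pandas 2.3.3, matplotlib 3.10.9). Scripts were tested on simulated data.

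Islands reached beyond the GRCm38 chromosome end on 8 of 21 chromosomes, so GRCm38 served only for gene names, gene order and upstream sequences. The named regions are, per array, the 3 with the highest lowest-of-4 score, the longest, the first and last in all 4, the 3 longest intervals without an island, and the 2 with the highest summed score in one genotype only. Bins were named after their values were seen.

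Littermate pairs come from the labels (methimazole group) and the study's methods. Deviations from group means correlated at -0.02 within pairs over 2801 regions and -0.09 over 140 array regions. Each library is 1 mouse, so the genotype p-values rest on the spread between libraries, in which mouse, litter and library are not separated. The sign-flip p-values concern differences within libraries. Intervals that need read totals were not computed.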

Additional observations from a re-analysis of the deposited data

Results flagged for a closer look

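The shared stretch of the distal array held 4 H3K4me3 peaks in mutant 1 against 1 in control 1, in data outside the H3K9me3 comparisons. The 3 peaks not called in control 1 scored 53.9, 56.1 and 55.1, against a median of 594 over all peaks of mutant 1, and none of the 4 reached that median. Each of the 3 lay over its full length within H3K9me3 islands in all 4 libraries. With 1 library per genotype the difference in the number of peaks was not tested.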

How the results depend on the processing

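The lower coverage, the lower score per kb and the longer median gap of the proximal array kept their direction under all alternatives run, with ranges of -20.8 to -17.1 points, -0.14 to -0.08 (log2) and 1.23 to 1.56 (log2). Among these, littermate pairs as block cannot change the values, and cutting islands at the window limits left them unchanged. The log2 ratio of median lengths changed sign, to -0.064 with islands of at least the pooled median score, -0.020 with windows narrowed by 0.1 Mb and -0.014 with the distal window begun 0.2 Mb later, and ranged from -0.012 to 0.060 when each library was left out. The coverage contrast between arrays and genotypes became -0.97 with narrowed windows and -0.52 with windows set to the shared stretch (chosen after seeing the data), and ranged from -4.81 to 5.33 without a library. Leaving out a library gave mutant-control differences of -24.5 to 4.44 points for distal coverage, -19.2 to -0.36 for proximal coverage, -0.48 to 0.026 (log2) for proximal and -0.53 to 0.0032 for distal score per kb, positive for the distal array only without mutant 2 (4.44 points and 0.0032) and for proximal score only without control 2 (0.026). Shares covered in all libraries then ranged from 63.0 to 76.3% proximally and 69.4 to 85.2% distally, the highest without mutant 2. Median log2 differences of distal regions ranged from -0.58 to 0.024. The number of regions past the limma threshold in the genome was 1, and became 199 with a pseudocount of 1, 0 with one 10 times as large, 0 without the shift, 5 with trend and robust fitting, and 0 to 1 without a library. In the arrays it was 6 proximally and 1 distally with a pseudocount of 1 and 0 otherwise. The fit with littermate pairs as replicate block also called 1 region in the genome and 0 in the arrays. At an unadjusted limma p under 0.05 it had 4 of 59 proximal regions and 1 of 81 distal regions, all lower in mutants. In the genome it had 151 of 2801, of which 61 were higher in mutants. With this block the coverage differences stayed at -9.78 and -10.04 points, which the balance of the pairs fixes in advance. The exact sign-flip p for coverage, score per kb and median gap between the arrays became 0.500, the smallest that 2 pairs allow, in place of 0.125. Among peaks at or above the library's median score mutant 1 had 2 H3K4me3 peaks in the distal window against 6 in all. The causes were not tested. With 2 mice per genotype the smallest permutation p is 0.333.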
